A study of Mus musculus with 5 samples.

Results

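The genes described here are 10 genes of neutral lipid uptake, storage and release that are used to recognise the lipofibroblast program: Plin2, Pparg, Lpl, Fabp4, Fabp5, Cd36, Lipe, Pnpla2, Angptl4 and Cebpa. They were taken by gene symbol from a table of 23478 genes, all 10 were present, and all 10 passed the filter on low counts. The values come from RNA-Seq of GFP-sorted lung cells at P6, made to ask how loss of Igf1r alters Gli1-lineage fibroblasts. All mice carried Gli1-CreERT2 and the Rosa26-eGFP reporter and were given 100 µg of tamoxifen on P0 and on P1. Controls (2 libraries) had 1 floxed and 1 wild-type Igf1r allele, and Igf1r-deleted mice (3 libraries) had 2 floxed alleles, so the controls can lose 1 copy of Igf1r and the Igf1r-deleted cells both. The study used both sexes on a mixed background. The number and sex of the pups behind each library are not given in the sources used here, and p-values therefore measure only the spread between these libraries. GFP marks every cell in which Gli1-CreERT2 was active and its progeny, which the study describes as mostly myofibroblasts together with lipofibroblasts and a few pericytes. The labels call the cells fibroblasts.

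Lipofibroblasts are interstitial cells of the neonatal rodent lung that hold triglyceride in cytoplasmic droplets, lie close to alveolar type 2 cells and are regarded as a source of lipid for surfactant. Lipoprotein lipase, the product of Lpl, frees fatty acids from circulating triglyceride, CD36 takes them up, fatty acid binding proteins carry them through the cytoplasm, and PLIN2, also called ADRP, coats the droplet in which they are stored as triglyceride. Release starts with adipose triglyceride lipase, encoded by Pnpla2, and continues with hormone-sensitive lipase, encoded by Lipe. PPARγ and C/EBPα are the transcription factors that switch on this program in fat cells.

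PPARγ binds, with a retinoid X receptor, to direct repeats of the hexamer AGGTCA with 1 base between them (DR1). The promoters of 6 of the 10 genes (Cd36, Cebpa, Lipe, Plin2, Pnpla2 and Pparg) were found in the RefSeq table, as 9 promoters of 250 bases before to 50 bases after a start. Both strands were searched. DR1 with at most 2 mismatches in all was found in 2 of the 9, those of Plin2 and Cd36, against 3.86% of the 32851 mouse promoters in the table. An exact AGGTCA was found in 4 of the 9, belonging to Plin2, Cd36 and Pparg, against 16.3% of all promoters. The C/EBP core TTGCG was found in 1 of the 9, that of Cebpa, against 17.4% of all promoters. Promoters of Pparg, with an exact AGGTCA but no DR1, are not printed. The upstream 250 bases of the promoters of Plin2, Cd36 and Cebpa follow, 5′ to 3′ on the strand of the gene, because they hold the DR1 and TTGCG matches. They lie at chr4:86670060-86670309 on the minus strand for Plin2, at chr5:17835897-17836146 on the minus strand for Cd36 and at chr7:35119043-35119292 on the plus strand for Cebpa, all in GRCm38.p6. Capitals mark the matches. In Plin2 the capitals are DR1 read on the opposite strand, and the exact hexamer lies inside it. In Cd36 the first capitals are an exact hexamer and the second are DR1, both read on the opposite strand. In Cebpa they are TTGCG. A match describes the letters of the window and does not show that a factor binds there.
Plin2: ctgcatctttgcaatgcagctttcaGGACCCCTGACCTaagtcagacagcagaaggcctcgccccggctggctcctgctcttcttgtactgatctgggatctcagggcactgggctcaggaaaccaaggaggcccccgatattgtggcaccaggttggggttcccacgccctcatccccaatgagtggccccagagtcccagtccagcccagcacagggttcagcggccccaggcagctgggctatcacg
Cd36: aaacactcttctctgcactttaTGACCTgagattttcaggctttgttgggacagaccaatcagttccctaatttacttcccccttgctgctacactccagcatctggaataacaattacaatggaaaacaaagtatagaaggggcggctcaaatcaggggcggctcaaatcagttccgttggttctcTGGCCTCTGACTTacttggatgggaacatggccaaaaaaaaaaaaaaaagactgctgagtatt
Cebpa: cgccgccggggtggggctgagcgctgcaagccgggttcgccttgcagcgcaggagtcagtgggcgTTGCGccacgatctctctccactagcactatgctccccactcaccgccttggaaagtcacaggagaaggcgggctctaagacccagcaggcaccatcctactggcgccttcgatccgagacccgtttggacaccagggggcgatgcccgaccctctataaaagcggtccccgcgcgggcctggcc

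Libraries held 35116766 to 37597857 counts, and 15298 genes were tested after the filter. The unit of level is CPM, a gene's counts scaled to library size, here with TMM factors of 0.961 to 1.06. Igf1r itself stood at 324 CPM in both control libraries, and at 140, 177 and 194 CPM in the 3 Igf1r-deleted ones, so the Igf1r-deleted libraries all lay below both controls. Its log2 fold change was −0.93 ± 0.14 (SE, adjusted p = 0.354 by edgeR's quasi-likelihood test after Benjamini-Hochberg adjustment). No gene of the table passed an adjusted p of 0.05 in this test (0 of 15298, 0%), so a gene without an adjusted call is not thereby shown to be unaffected. The smallest adjusted p over the whole table was 0.306. DESeq2's Wald test on the same counts gave 196 calls among the 12936 genes for which it reports an adjusted p (1.52%).

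Among the 10 lipid storage genes, 9 had a log2 fold change below 0 in Igf1r-deleted libraries, against 47.7% of all genes tested, and Lpl was the exception. Their median log2 fold change was −0.37, beside 0.015 over all genes tested. The genotypes were separated for 4 genes, Pnpla2, Cebpa, Cd36 and Fabp4, for which no Igf1r-deleted library reached either control. Such separation downward was seen in 14.9% of all genes, and separation upward, in none of the 10, was seen in 16.0%. An unadjusted p-value under 0.05 was found for Pnpla2, Cebpa and Fabp4, all lower, where 6.75% of all genes were lower and 5.65% higher at that level (12.4% in both directions). With edgeR 0 of the 10 passed the adjusted threshold. With DESeq2's Wald test 2 did, Pnpla2 (adjusted p = 0.0194) and Cebpa (adjusted p = 0.0295). The criterion of the study was a log2 fold change of 0.5 or more in either direction with an unadjusted p under 0.05 and a minimum level. The study took p from DESeq. With DESeq2's Wald test 4 of the 10 met it, Pnpla2, Cebpa, Fabp4 and Cd36, beside 5.40% of all genes. With edgeR's p, used here, the 3 genes Pnpla2, Cebpa and Fabp4 met it, beside 5.83% of all genes and 3.67% in the lower direction. Without control replicate 1 none of the 10 met it, and 1.45% of all genes did. In these sorted bulk samples, fewer lipid-holding cells and less RNA per cell cannot be told apart.

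**Figure D1:**
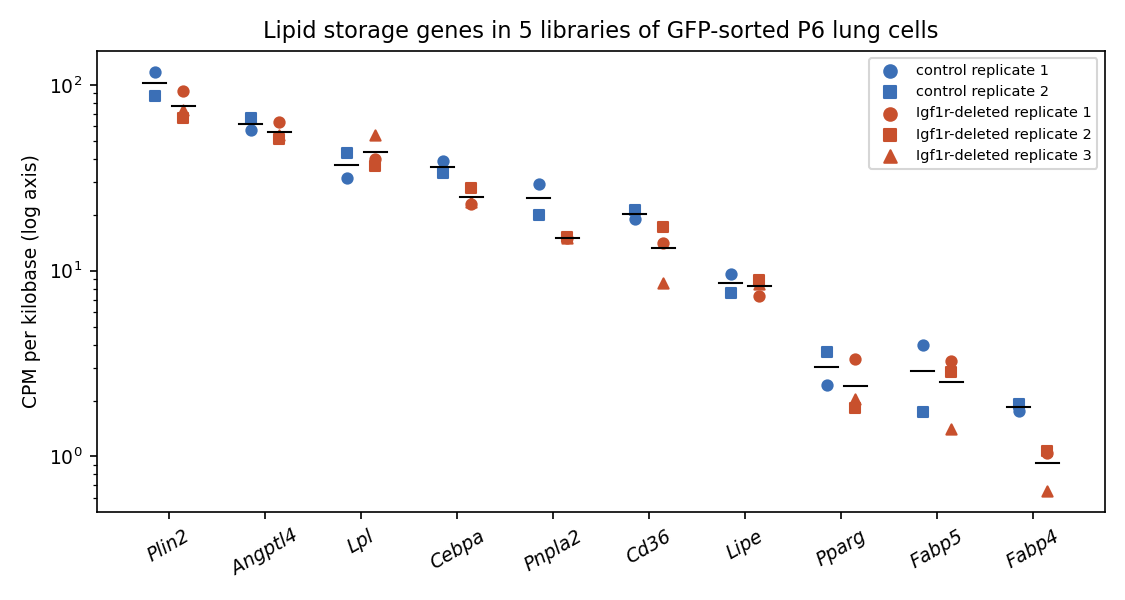
Level of each gene in each library, in CPM per kilobase of its longest protein-coding transcript on a log axis, ordered by the control mean. Points are libraries (blue control, orange Igf1r-deleted, marker shape the replicate number) and bars are group means. Plin2 led in every library, and Pnpla2, Cebpa, Cd36 and Fabp4 had no overlap between the genotypes.

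Per kilobase of the longest protein-coding transcript, the order of the control means was Plin2 (103 CPM per kilobase), Angptl4 (61.7), Lpl (37.2), Cebpa (36.1), Pnpla2 (24.6), Cd36 (20.1), Lipe (8.60), Pparg (3.04), Fabp5 (2.87) and Fabp4 (1.84). The ranges over all 5 libraries were apart only between the neighbours Plin2 and Angptl4 and between Lipe and Pparg. All other neighbours overlapped, so their order is not resolved. Transcripts of the droplet coat and of extracellular lipolysis stood well above those of the 2 fatty acid binding proteins and of Pparg. Library by library, control replicate 1 held the highest CPM for 5 of the 10 genes, control replicate 2 for 4 and Igf1r-deleted replicate 3 for 1, which was Lpl. The lowest value was in an Igf1r-deleted library for 9 of the 10 genes.

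Plin2 (chr4:86648386-86670060, minus strand, GENCODE M21 on mm10) encodes the droplet coat protein by which lipofibroblasts are stained. It had 223 and 165 CPM in control libraries, and 175, 125 and 139 CPM in replicates 1, 2 and 3 of the Igf1r-deleted mice. Control replicate 1 was the highest of the 5, and Igf1r-deleted replicate 1 lay above control replicate 2, so the genotypes overlapped. The means were 194 ± 40.7 CPM (SD, n = 2) and 146 ± 25.6 CPM (SD, n = 3), with a log2 fold change of −0.41 ± 0.18 (SE, adjusted p = 0.404 in edgeR's quasi-likelihood test). That value was −0.18 if control replicate 1 was left out and −0.62 if the other control was, and its direction was the same with every library left out. Of the 31-base sequences of its exons, 5.16% also occurred in other annotated genes, chiefly Gm12551.

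Of the lipases that empty the droplet, Pnpla2 showed no overlap between the genotypes and Lipe did. Pnpla2 (chr7:141455198-141460743, plus strand), which encodes the lipase that takes the first fatty acid from triglyceride, had 76.8 and 52.1 CPM in control and 39.3, 39.7 and 39.4 CPM in Igf1r-deleted libraries. The 3 Igf1r-deleted libraries were nearly identical and all lay below both controls, while the controls differed from each other by more than control replicate 2 differed from the Igf1r-deleted libraries. The means were 64.4 ± 17.4 CPM (SD, n = 2) and 39.5 ± 0.219 CPM (SD, n = 3). Its log2 fold change of −0.71 ± 0.16 (SE) had an unadjusted p of 0.00265 and an adjusted p of 0.354 in edgeR's quasi-likelihood test. Pnpla2 had the smallest p-value of the 10 genes. Leaving out control replicate 1 gave −0.41. Leaving out control replicate 2 gave −0.97, with an adjusted p of 0.0399 in edgeR, but with a lone control the spread comes from the Igf1r-deleted libraries and the control is assumed to vary like them.

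Lipe (chr7:25379527-25398710, minus strand), which encodes the diglyceride lipase of the next step, had 35.8 and 28.1 CPM in control and 27.1, 33.1 and 31.4 CPM in Igf1r-deleted libraries. The genotypes were interleaved. Its value on the log2 scale was −0.062 ± 0.14 (SE, adjusted p = 0.868 with edgeR's quasi-likelihood test), and its sign turned with library totals in place of TMM factors and when control replicate 1 or Igf1r-deleted replicate 1 was left out. Of its exon length, 15.6% is overlapped by 4732471J01Rik on the opposite strand. Whether strand was used in counting is not given, so reads in that stretch are uncertain.

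Of the genes of lipid supply, Lpl lay above and Angptl4 below its control mean, both with overlap. Lpl (chr8:68880491-68907448, plus strand), which encodes the secreted lipase that frees fatty acids at the capillary wall, had 130 and 177 CPM in control and 165, 151 and 221 CPM in Igf1r-deleted libraries. Igf1r-deleted replicate 3 was the highest and control replicate 1 the lowest, with the other 3 libraries in between. The log2 fold change of 0.23 ± 0.20 (SE, adjusted p = 0.649 with edgeR's quasi-likelihood test) came to 0.014 without control replicate 1 and to 0.043 without Igf1r-deleted replicate 3. Angptl4 (chr17:33773750-33781830, minus strand), a secreted inhibitor of lipoprotein lipase and a known PPAR target, had 190 and 218 CPM in control and 208, 170 and 179 CPM in Igf1r-deleted libraries. Igf1r-deleted replicate 1 lay between the controls and the other 2 Igf1r-deleted libraries below them. Its log2 fold change was −0.14 ± 0.12 (SE, adjusted p = 0.658 with edgeR's quasi-likelihood test).

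Cd36 (chr5:17781690-17888801, minus strand), the fatty acid translocase, had 64.8 and 72.0 CPM in control and 48.2, 58.4 and 29.1 CPM in Igf1r-deleted libraries. All 3 Igf1r-deleted libraries lay below both controls, and replicate 3 was far below the other 2. The means were 68.4 ± 5.10 CPM (SD, n = 2) and 45.2 ± 14.9 CPM (SD, n = 3). On the log2 scale the fold change of −0.60 ± 0.26 (SE) had an unadjusted p of 0.0519 and an adjusted p of 0.401 in edgeR's quasi-likelihood test, and was −0.36 without Igf1r-deleted replicate 3. Cd36 is also a gene of capillary endothelium and macrophages.

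The fatty acid binding proteins had the lowest control means of the 10 genes per kilobase. Fabp4 (chr3:10204088-10208576, minus strand), the form typical of fat cells, which is also found in capillary endothelium and macrophages, had 55 and 63 counts in the controls and 33, 38 and 21 counts in the Igf1r-deleted libraries. On the CPM scale these were 1.58 and 1.72 against 0.935, 0.956 and 0.584. The genotypes did not overlap, and the counts are small. The log2 fold change of −0.997 ± 0.38 (SE) was the lowest of the 10 genes, with an unadjusted p of 0.0331 and an adjusted p of 0.377 in edgeR's quasi-likelihood test. It was −0.81 without Igf1r-deleted replicate 3. DESeq2's filtering gave Fabp4 no adjusted p.

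Fabp5 (chr3:10012548-10016607, plus strand), the form named for skin and also made by macrophages, had 3.95 and 1.72 CPM in control and 3.23, 2.82 and 1.39 CPM in Igf1r-deleted libraries. The 2 controls spanned nearly the whole range of the 5 libraries. Its log2 fold change was −0.19 ± 0.47 (SE, adjusted p = 0.880 in edgeR's quasi-likelihood test), and the sign turned without control replicate 1, without Igf1r-deleted replicate 3 or with the replicate number as a block. Of the 376 windows of 30 bases in the coding sequence of Fabp5, 317 (84.3%) also occurred exactly in 5 processed pseudogenes, none of which is in the count table. For Fabp4 it was 0 of 367 windows. How the counting placed reads that match a copy is not given in the sources used here, so the level of Fabp5 is uncertain.

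The 2 transcription factors differed in level per kilobase (36.1 and 3.04 CPM per kilobase in controls) and in spread. Cebpa (chr7:35119293-35121928, plus strand), a gene of a single exon, had 102 and 87.9 CPM in control and 60.1, 73.7 and 61.7 CPM in Igf1r-deleted libraries. No Igf1r-deleted library reached either control. The means were 94.9 ± 9.81 CPM (SD, n = 2) and 65.2 ± 7.42 CPM (SD, n = 3), for a log2 fold change of −0.54 ± 0.13 (SE) with an unadjusted p of 0.00324 and an adjusted p of 0.354 in edgeR's quasi-likelihood test. It stayed between −0.65 and −0.44 with each library left out in turn. Cebpa is also a gene of alveolar type 2 cells and macrophages.

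Pparg (chr6:115360951-115490399, plus strand) was a low transcript, with 178 and 285 counts in the controls and 250, 155 and 156 counts in the Igf1r-deleted libraries. On the CPM scale these were 5.13 and 7.78 against 7.08, 3.90 and 4.34. Igf1r-deleted replicate 1 sat with control replicate 2 at the upper end and control replicate 1 near the other 2 Igf1r-deleted libraries, so the genotypes overlapped. On the log2 scale the fold change was −0.34 ± 0.32 (SE, adjusted p = 0.672 in edgeR's quasi-likelihood test), or −0.018 when control replicate 2 and −0.65 when Igf1r-deleted replicate 1 was left out.

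**Figure D2:**
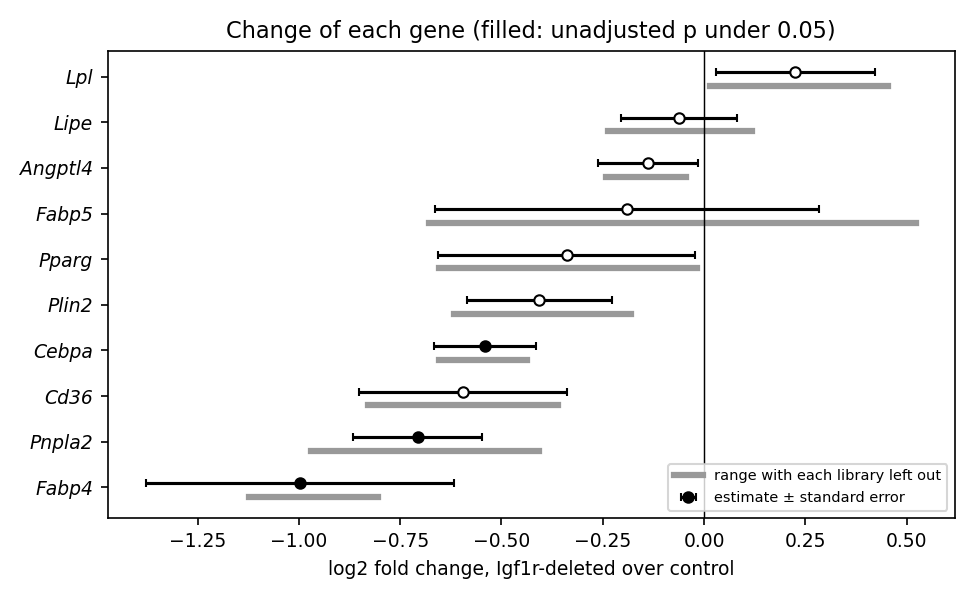
Log2 fold change of each gene, Igf1r-deleted over control, from edgeR with its standard error (points with bars, filled where the unadjusted p was under 0.05) and the range obtained when each library was left out in turn (grey bars). Pnpla2, Cebpa and Fabp4 are the filled points, at −0.71, −0.54 and −0.997, and the grey bars of Fabp5 and Lipe cross 0.

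The genes most like Plin2 over the 5 libraries, by Pearson correlation of log2 CPM, were Akt1s1, Sdf2, Abca8a, Mgp and Gsn (r from 0.9967 to 0.9995 among 13338 genes). Gsn, which encodes gelsolin, had 5134 and 3064 CPM in control and 3236, 1816 and 2055 CPM in Igf1r-deleted libraries, the same order of libraries as Plin2. For Pparg the closest were Tnxb, Angptl4, Blk, Ndufs4 and Nabp2 (r from 0.9927 to 0.9991). Angptl4 ranked second of the 13338 genes for Pparg (r = 0.9958). These are descriptions over 5 points that share libraries, and r was over 0.99 for 41 genes with Plin2 and for 7 with Pparg. Plin2 and Pparg themselves had r = 0.4796, and of the other 9 genes Pnpla2 was the most like Plin2 (r = 0.8264).

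Around the 10 genes, 66 other genes of the pathway were followed, of which 61 passed the filter. Of these, 35 had lower and 26 higher log2 fold changes in Igf1r-deleted libraries (median −0.062). None passed the adjusted threshold in edgeR (0 of 61). With DESeq2's Wald test 5 passed, including Lpin1, G0s2, Cebpd and Pdk4, beside 1.52% of all genes. At an unadjusted p under 0.05 there were 13 lower and 5 higher, beside the 6.75% and 5.65% of all genes. Those 18 stood beside 12.4% of all genes in both directions. They were 5 without Igf1r-deleted replicate 2 and 9 without Igf1r-deleted replicate 3, beside 6.58% and 7.35% of all genes. Effect sizes also depended on control replicate 1. Without it the log2 fold change went from −0.90 to −0.35 for Lpin1 and from 0.49 to 0.22 for Mgll. For Lpin2 it went from 0.30 to 0.32. The genotypes did not overlap for 23 genes downward and 7 upward, beside the 14.9% and 16.0% of all genes.

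**Figure D3:**
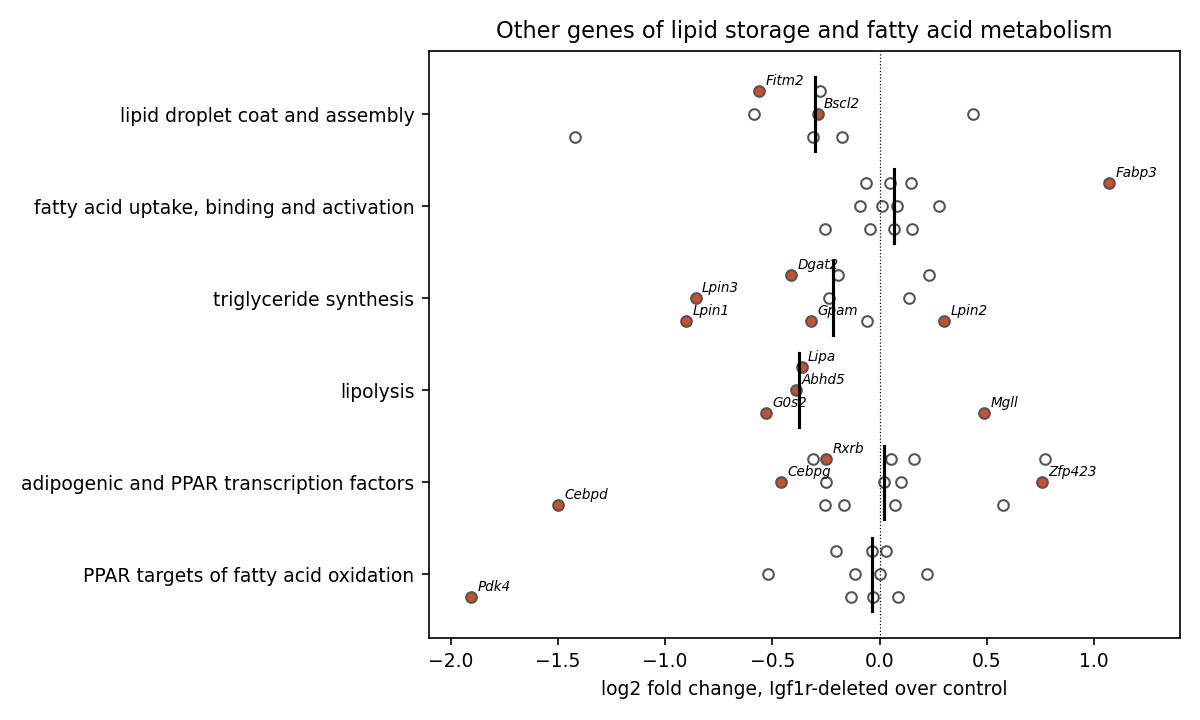
Log2 fold change, Igf1r-deleted over control, of the tested genes of 6 lists, 1 gene left out (1 point a gene, filled and named where the unadjusted p was under 0.05). Black bars are list medians, from −0.38 for lipolysis to 0.066 for uptake, and Pdk4 at −1.90 and Cebpd at −1.50 lie farthest to the left.

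Genes of the droplet coat and its assembly were lower in 7 of 8 tested (median −0.30). Of these, 2 had an unadjusted p under 0.05, beside 6.75% of all genes lower at that level. Fitm2, which helps triglyceride leave the endoplasmic reticulum, had 19.2 and 11.4 CPM in control and 11.0, 10.5 and 9.52 CPM in Igf1r-deleted libraries, for a log2 fold change of −0.56, and −0.14 without control replicate 1. Bscl2, which encodes the droplet assembly protein seipin, had a log2 fold change of −0.29, or −0.13 when control replicate 1 was left out, and Plin3, a second coat protein, of −0.18. The coat genes typical of fat cells were scarce, with 19 to 49 counts for Plin1, 19 to 61 for Plin4 and 11 to 47 for Cidec. Fitm1 had 0 to 15 counts, so the 7 of 8 rest in part on small counts. Plin4 turned from −0.58 to 0.54 without control replicate 1. Cidec turned from −0.28 to 0.065 without Igf1r-deleted replicate 3.

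Triglyceride synthesis genes were lower in 7 of 10, for all 7 without overlap between the genotypes, and 2 of the 3 higher genes did not overlap either. The median was −0.22, and the unadjusted p was under 0.05 for 4 lower genes and 1 higher gene. Over all genes, 14.9% did not overlap downward and 16.0% upward, and 6.75% were lower and 5.65% higher at that p. Lpin1, a phosphatidate phosphatase, had 75.5 and 39.0 CPM in control and 29.3, 29.9 and 32.8 CPM in Igf1r-deleted libraries. As for Pnpla2, the Igf1r-deleted libraries were close together and the controls far apart, and the log2 fold change of −0.90 came to −0.35 without control replicate 1. DESeq2's Wald test gave Lpin1 an adjusted p of 0.0379. Dgat2, which completes triglyceride, had a log2 fold change of −0.41, or −0.21 when control replicate 1 was left out. Lpin2, a close relative of Lpin1, went the other way at 0.30, from 29.7 and 28.7 CPM to 34.0, 35.6 and 38.4 CPM.

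All 4 tested genes of lipolysis beyond Pnpla2 and Lipe had an unadjusted p under 0.05, 3 lower and 1 higher (median −0.38). At that level 6.75% of all genes were lower and 5.65% higher. The activator and the inhibitor of adipose triglyceride lipase were both lower. Abhd5, the activator, had 70.4 and 50.8 CPM in control and 47.7, 43.3 and 47.6 CPM in Igf1r-deleted libraries, for a log2 fold change of −0.39 that was −0.14 when control replicate 1 was left out. G0s2, the inhibitor, had 336 and 285 CPM against 235, 197 and 214 CPM, a log2 fold change of −0.53 (adjusted p = 0.354 with edgeR's quasi-likelihood test and 0.0180 with DESeq2's Wald test). Mgll, which cleaves the last fatty acid from glycerol, was higher, with 122 and 183 CPM against 196, 233 and 212 CPM, a log2 fold change of 0.49 that was 0.22 without control replicate 1.

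Uptake, binding and activation genes were higher in 9 of 13 tested (median 0.066). Fabp3, the heart form of the fatty acid binding proteins, was scarce and lay in the direction opposite to Fabp4, with 0.749 and 1.53 CPM in control against 1.53, 2.77 and 2.89 CPM in Igf1r-deleted libraries, a log2 fold change of 1.07 on 26 to 110 counts. Leaving out control replicate 1 brought it to 0.65. Acsl3, which activates fatty acids at the droplet, had a log2 fold change of −0.26 with overlapping genotypes, or −0.14 when control replicate 1 was left out.

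Of the 15 adipogenic and PPAR transcription factors, 7 were lower and 8 higher (median 0.023). Cebpd, an early factor of fat cell differentiation that is also induced by glucocorticoid, had 1881 and 1012 CPM in control and 675, 398 and 461 CPM in Igf1r-deleted libraries. The controls differed from each other by more than control replicate 2 differed from the Igf1r-deleted mean. The log2 fold change was −1.50 ± 0.30 (SE, adjusted p = 0.354 with edgeR's quasi-likelihood test and 0.0476 with DESeq2's Wald test), and −0.99 without control replicate 1. Cebpg had a log2 fold change of −0.46, or −0.26 when control replicate 1 was left out, and Rxrb, a partner of PPARγ, of −0.25.

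The PPAR targets of fatty acid oxidation had a median of −0.037, with 7 of 11 lower. At an unadjusted p under 0.05 there was 1 gene, lower, beside 6.75% of all genes. That gene was Pdk4, a kinase that restrains pyruvate oxidation. It had 111 and 42.9 CPM in control and 23.8, 17.5 and 20.6 CPM in Igf1r-deleted libraries, a log2 fold change of −1.90 ± 0.35 (SE, adjusted p = 0.354 with edgeR's quasi-likelihood test and 0.0200 with DESeq2's Wald test), or −1.06 when control replicate 1 was left out. Ucp2, a mitochondrial carrier, had a log2 fold change of −0.52, and −0.28 without Igf1r-deleted replicate 3. Acadl, a dehydrogenase of β-oxidation, had one of 0.22.

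The cells were checked against markers of the types the gate could hold. The 12 lipofibroblast markers other than the 10 genes summed to 17574 and 18438 CPM in control and 17205, 15598 and 17439 CPM in Igf1r-deleted libraries, a ratio of means of 0.930, with 7 of 12 lower (median −0.083). That sum is weighted toward a few abundant markers, with control means of up to 4629 CPM for a single gene. Tcf21, the factor that marks the lipofibroblast lineage, had 1662 and 1168 CPM against 1003, 902 and 963 CPM. Its log2 fold change was −0.57, or −0.29 when control replicate 1 was left out. Myofibroblast markers were higher in 9 of 12 (median 0.35) and summed to 4277 and 4565 CPM against 4530, 5251 and 4888 CPM. Acta2, which encodes αSMA, had the largest log2 fold change of the 12 (0.78), with 407 and 655 CPM against 764, 1067 and 907 CPM. That value was 0.47 without control replicate 1. The 3 lower genes of the list were Hhip (−0.47), Aspn (−0.23) and Pdgfra (−0.18). Pericyte markers were lower in 3 and higher in 5 of 8 (median 0.015). The 8 fat cell markers were mixed. Adipoq, Lep, Retn and Cfd were each at 0 in at least 1 library, and Adipoq had at most 2 counts. Adrb3 was present in every library, at 13.3 to 16.6 CPM. Slc2a4 had 2.53 and 3.79 CPM in control and 5.61, 6.64 and 5.76 CPM in Igf1r-deleted libraries.

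Lipid storage genes, among them Cd36, Fabp4, Cebpa and Pnpla2, are also expressed outside fibroblasts, in cells that the GFP gate is meant to leave out. Macrophage, leukocyte and epithelial markers had log2 fold changes below 0, while endothelial markers went both ways. The summed markers of all 3 types overlapped between the genotypes. Macrophage and leukocyte markers were lower in 12 of 12 (median −0.67) and summed to 590 and 440 CPM in control and 475, 389 and 232 CPM in Igf1r-deleted libraries. Epithelial markers were lower in 12 of 12 (median −0.34) and summed to 1124 and 1052 CPM against 769, 1076 and 485 CPM. Endothelial markers were lower in 7 of 12 (median −0.073), with 618 and 598 CPM against 574, 845 and 305 CPM. None of the markers of these 3 types was at 0 in any library. Of the defining genes, Sftpc of type 2 cells had 233 to 552 CPM, Epcam 1.92 to 5.10, Pecam1 of endothelium 40.2 to 120, Cdh5 58.4 to 206, Ptprc of leukocytes 12.2 to 31.1, Cd68 4.45 to 10.8 and Marco of alveolar macrophages 0.654 to 3.08 CPM.

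**Figure D4:**
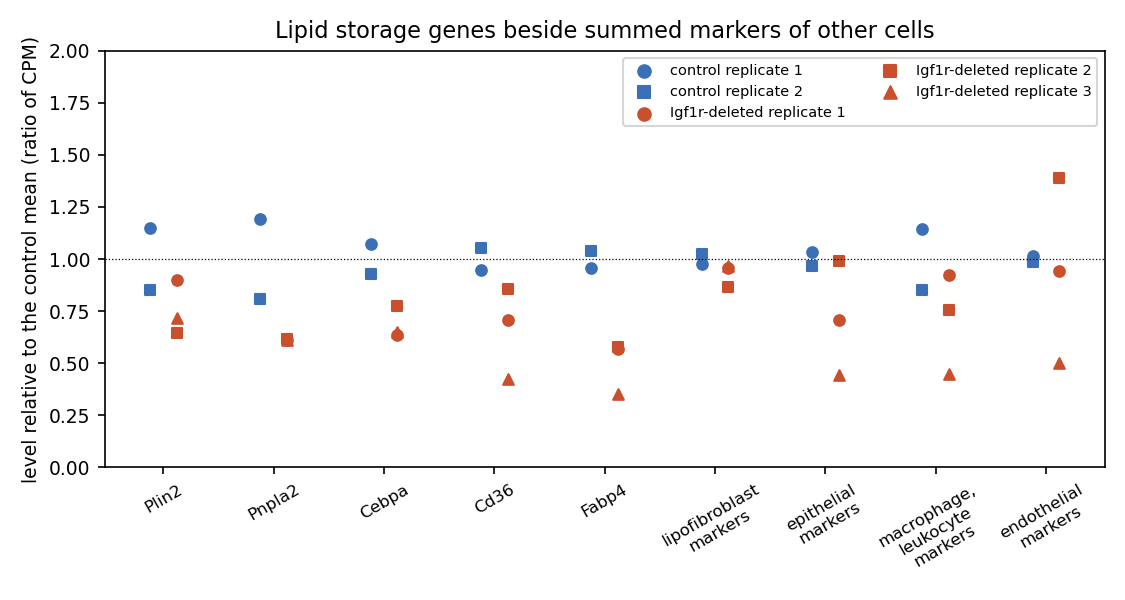
Level of 5 lipid storage genes and summed CPM of 4 marker lists in each library, as a ratio to the mean of the controls (dotted line at 1, colours and shapes as for the levels). Igf1r-deleted replicate 3 is the lowest library for Cd36 and Fabp4 and for the epithelial, macrophage and endothelial sums, while the 3 Igf1r-deleted libraries of Pnpla2 lie between 0.609 and 0.616.

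Igf1r-deleted replicate 3 had the lowest sum of all 3 lists, at 0.445 of the control mean for epithelial, 0.450 for macrophage and leukocyte and 0.501 for endothelial markers. Cd36 in that library was at 0.425 and Fabp4 at 0.354. Igf1r-deleted replicate 2, with endothelial markers at 1.39 of the control mean, had Cd36 at 0.855 and Fabp4 at 0.579. Pnpla2 was nearly level across the Igf1r-deleted libraries, at 0.609, 0.616 and 0.612. Cebpa lay at 0.634, 0.777 and 0.651. Plin2 lay at 0.901, 0.644 and 0.717. The part of these other cells in the lower Cd36, Fabp4, Cebpa and Pnpla2 was not tested. Without Igf1r-deleted replicate 3 the log2 fold changes were −0.71 for Pnpla2, −0.51 for Cebpa, −0.36 for Cd36 and −0.81 for Fabp4.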

How the data were processed

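RNA-Seq libraries were made by the authors with a NEBNext Ultra kit. Per the labels and the methods, reads were trimmed with Trim Galore and mapped with Bowtie2 to mm10, genes were counted with GenomicAlignments, and the authors deposited unnormalized counts per gene symbol for each library. Counter settings, the annotation and the use of strand are not given in the sources used here. Bowtie2 does not split reads over introns, and the effect on multi-exon genes was not tested. FPKM from Cufflinks was not used.

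Groups and replicate numbers came from the sample titles. The test was edgeR's two-sided quasi-likelihood F test (edgeR 4.0.16, limma 3.58.1, R 4.3.3) with TMM factors, filterByExpr and genotype as the sole term, and p-values were adjusted by Benjamini-Hochberg over 15298 of 23478 genes. With 2 libraries against 3, no exact permutation p can be below 0.1. A prior count of 2 was used for log2 CPM in correlations. For the study's criterion, the minimum level was CPM above 1 in 50% or more of a genotype's libraries, in place of FPKM. Its p-value was edgeR's in place of DESeq's. Alternatives were a replicate block, Xist as a covariate, limma voom, DESeq2 1.42.0, its size factors, upper-quartile factors or library totals, a looser filter (1 count in any library), a stricter one (10 counts in all libraries), robust empirical Bayes and each library left out.

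The genes named are the 10, Igf1r, the 3 genes of the smallest p in each pathway list, defining cell type markers, and the 5 genes most like Plin2 and Pparg. Plin1, Plin4, Cidec, Fitm1, Lep, Retn, Cfd, Adrb3, Slc2a4, Hhip, Aspn and Pdgfra were added after their values were seen. From the pathway lists, 1 gene is not reported here. The 10 genes and the lists were chosen with earlier results of these data known. Positions, transcript lengths and shared sequences came from GENCODE M21 on mm10, where 22114 symbols matched directly, 1027 by a synonym and 337 not at all. Promoters came from RefSeq. A count of 0 allows up to 3 counts, for counting error only.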

Additional observations from a re-analysis of the deposited data

How the results depend on the processing

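Across DESeq2, the other scalings and filters, robust empirical Bayes, voom, the replicate block, Xist as a covariate and each library left out, 8 of the 10 genes kept the sign of their log2 fold change. The exceptions were Fabp5, at 0.20 with the replicate block and, with a library left out, between −0.68 and 0.52 (0.093 if Igf1r-deleted replicate 3 was dropped), and Lipe, at 0.016 with library totals and, with a library left out, between −0.24 and 0.12 (0.011 if Igf1r-deleted replicate 1 was dropped). The cause was not tested. Genes called at an adjusted p under 0.05 were 2 of the 10 with DESeq2 (1.52% of all genes) and 0 to 1 with a library left out, the 1 being Pnpla2 if control replicate 2 was dropped (0.286% of all genes). At an unadjusted p they were 5 with DESeq2 (10.9% of all genes) and 5 with the looser filter (11.3%), and 2 to 5 with a library left out, beside 2.76% of all genes for the 2 (no control replicate 1) and 21.0% for the 5 (no Igf1r-deleted replicate 1). Those that did not overlap were 4 to 8, with the 8 if control replicate 2 was dropped, where 62.0% of all genes did not overlap in either direction, since fewer libraries overlap less by construction. Those that met the criterion of the study were 0 to 4, beside 1.45% of all genes for the 0 (no control replicate 1). The median log2 fold change ran from −0.57 to −0.30, the former without control replicate 2. Pathway genes at an unadjusted p under 0.05 were 11 with Xist as a covariate and 5 to 23 with a library left out. Over the whole table that count was 1897 genes, 433 if control replicate 1 and 3183 if Igf1r-deleted replicate 1 was dropped.

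The shared replicate numbers are not stated to pair libraries, and same-numbered libraries deviated together only weakly (r = 0.208 and 0.121, 2 pairs). The replicate block called 136 genes in the table and 0 of the 10. Igf1r was called with it (−1.04, adjusted p = 0.0139 with edgeR) and with DESeq2 (−0.94, adjusted p = 1.117e-05). For 6 of the 10 genes, control replicate 1 was the control farther from the mean of the Igf1r-deleted libraries. Fabp4 and Fabp5 rest on 21 to 137 counts a library, so counting error adds to the spread between libraries.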
